A study of Mus musculus with 10 samples.

Results

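Heme synthesis genes and the electron partners of microsomal cytochromes P450 were examined in livers of humanized mice treated with MI-883, a ligand of the nuclear receptors CAR and PXR. The 9 genes were taken by name from 16647 genes with deposited counts and comprised Alas1, Alad, Uros, Urod, Cpox, Ppox and Fech of heme synthesis, together with Por and Cyb5a. All mice were male, of the humanized PXR-CAR-CYP3A4/3A7 model, and were 10 to 15 weeks old at the start. They were fed a high-fat diet (HFD) for 8 weeks before treatment and stayed on it during treatment. The 5 MI-883 mice then received 5 mg/kg by oral gavage on 3 days per week for 4 weeks, and the 5 control mice received the vehicle of DMSO, PEG300 and corn oil on the same schedule. Reads were counted on mouse genes, so that the human genes have no value of their own here.

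Heme is the iron-containing group that every cytochrome P450 needs for catalysis, and the liver is a main site of its synthesis outside the bone marrow. The pathway starts in mitochondria with the joining of glycine and succinyl-CoA by ALAS1, the rate-limiting enzyme in liver, continues in the cytosol and ends in mitochondria, where ferrochelatase inserts iron. ALAS1 is known to be induced by drugs that induce P450 enzymes and to be repressed by heme itself. POR, the NADPH-cytochrome P450 reductase of the endoplasmic reticulum, passes electrons to all microsomal P450 enzymes, and cytochrome b5, the product of Cyb5a, can donate an electron to some of them.

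Between 24014461 and 36221514 reads per control liver and between 23513665 and 28349963 per MI-883 liver were counted on genes. Correlations between the libraries lay between 0.9815 and 0.9943. The livers expressed the hepatocyte gene Alb at 56582 CPM (counts scaled to a common library size by the TMM method) in controls and 50515 CPM after MI-883. In the edgeR quasi-likelihood test, 136 of 13219 tested genes, or 1.03%, had an adjusted P under 0.05.

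The start regions of the pathway genes are shown because drug induction of Alas1 and Por is described as transcriptional. RefSeq start windows of 250 bases before to 50 bases after the start were found for 7 of the 9 genes (10 windows, GRCm38.p6), and not for Fech and Cyb5a. Capitals mark motifs searched for on both strands of the windows. The E-box was searched as CACGTG. The sequence GGGCGG stood for the GC box, which Sp1 family factors are known to bind. The letters CCAAT are the box of the same name. The core of the palindromic site of NRF1, the nuclear respiratory factor, was searched as CGCATGCG. The first 2 sequences give the 250 bases before the starts of Alas1 (chr9:106247955-106248204, minus strand) and Por (chr5:135688895-135689144, plus strand, a RefSeq start inside the annotated gene).
Alas1: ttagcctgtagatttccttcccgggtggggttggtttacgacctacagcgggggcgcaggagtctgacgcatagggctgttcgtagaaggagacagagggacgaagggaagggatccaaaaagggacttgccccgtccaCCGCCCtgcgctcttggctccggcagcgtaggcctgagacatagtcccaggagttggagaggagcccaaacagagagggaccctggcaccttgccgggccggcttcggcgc
Por: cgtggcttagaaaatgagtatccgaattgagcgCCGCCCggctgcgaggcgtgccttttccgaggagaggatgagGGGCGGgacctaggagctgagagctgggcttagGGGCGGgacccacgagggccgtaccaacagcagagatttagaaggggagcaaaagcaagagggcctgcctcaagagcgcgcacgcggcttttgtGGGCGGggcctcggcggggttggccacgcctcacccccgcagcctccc
For Alad (chr4:62520064-62520213) and Urod (chr4:116994414-116994563), both on the minus strand, the 150 bases before the start are shown, since both carry an E-box there. The capitals at the end of the Urod sequence begin a GC box that crosses the start.
Alad: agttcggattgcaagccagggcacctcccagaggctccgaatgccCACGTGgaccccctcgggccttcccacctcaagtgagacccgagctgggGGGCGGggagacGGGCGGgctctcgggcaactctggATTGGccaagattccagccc
Urod: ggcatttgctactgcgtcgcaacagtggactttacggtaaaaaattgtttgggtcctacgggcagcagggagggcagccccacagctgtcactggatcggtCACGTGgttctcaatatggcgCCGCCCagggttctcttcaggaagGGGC
The NRF1 core of Alas1 lay after the Alas1 start used above, at positions 31 to 38 counted from that start base as 1. For the other listed start of Alas1, the same core lay before it, from 194 to 187 bases. The core is shown with its flanks (chr9:106247907-106247934, minus strand).
Alas1 site: gcacccaaggCGCATGCGcggcggtcac

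The Por sequence holds 4 GC boxes, and the Alas1 sequence holds 1. A gene was counted for a motif when any of its windows held it, and Alas1, Alad and Uros had 2 windows each. The shares over all windows are per single window and so not of the same unit. A GC box was found in 6 of the 7 genes, all but Cpox, and in 35.7% of 32851 RefSeq start windows. The E-box was found in Alad, Uros and Urod, and in 7.15% of all windows. In Uros it lay at the edge of 1 window, from 250 to 245 bases before a RefSeq start inside the annotated gene. The NRF1 core was found only in Alas1 among the 7 genes, and in 1.87% of all windows. A CCAAT box was found in Alad, Urod and Ppox (37.4% of all windows). The nuclear receptor half-site AGGTCA was found in none of the 7 genes (16.3% of all windows), AGTTCA only in Alad (14.0%) and the TATA box TATAAA in none (13.6%). These matches describe letters in the windows and not binding, and sequence outside the windows was not searched.

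Levels of different genes were compared as CPM per kb of exon, which corrects for transcript length. In control livers, Cyb5a was the highest of the 9 genes at 1480 ± 136 CPM per kb (S.D., n = 5). Alas1 followed at 321 ± 69.1 and Por at 312 ± 84.5 CPM per kb. Alas1 and Por were the only neighbours in the order whose control livers overlapped. The later enzymes of heme synthesis were lower than Alas1, with Alad at 151 ± 7.85, Urod at 81.1 ± 5.09, Cpox at 52.1 ± 3.81 and Fech at 23.8 ± 1.83 CPM per kb. The lowest were Ppox at 14.0 ± 0.700 and Uros at 10.7 ± 1.28 CPM per kb.

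**Figure D1:**
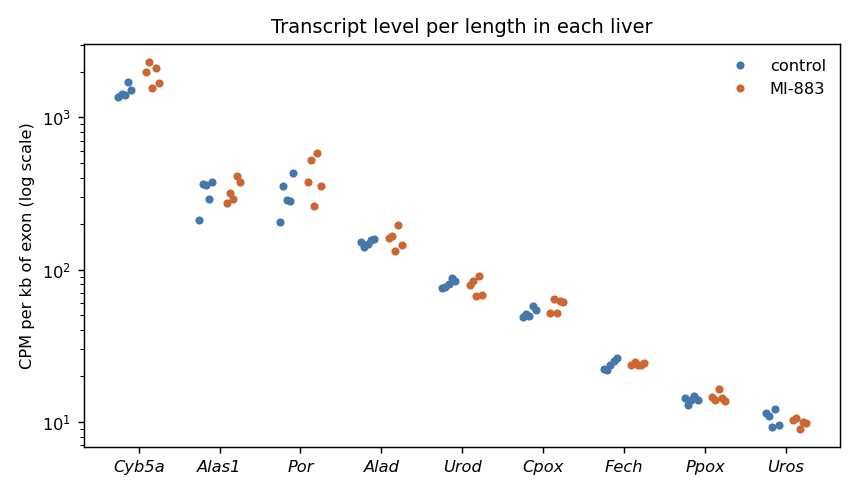
Level of the genes in CPM per kb of exon (log scale), with 1 point per liver for control and MI-883. In controls, Cyb5a lies highest with a mean of 1480 and Uros lowest with 10.7 CPM per kb, and Alas1 and Por overlap.

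None of the 9 genes passed an adjusted P of 0.05 in the edgeR quasi-likelihood test after MI-883 (0 of 9, beside 1.03% of all tested genes). Cyb5a alone had an unadjusted edgeR P under 0.05 (1 of 9, beside 15.6% of all tested genes). DESeq2, the package used by the study, called 1 of the 9, Cyb5a, beside 3.5% of all tested genes. Of the 9 log2 fold changes, 7 were above 0 and 2 below (51% of all tested genes were above 0). Their median was 0.06, beside 0.0045 over all tested genes. In no gene were the groups without overlap, which 3.98% of all tested genes showed. In whole liver, fewer cells of a type and less RNA per cell cannot be told apart.

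**Figure D2:**
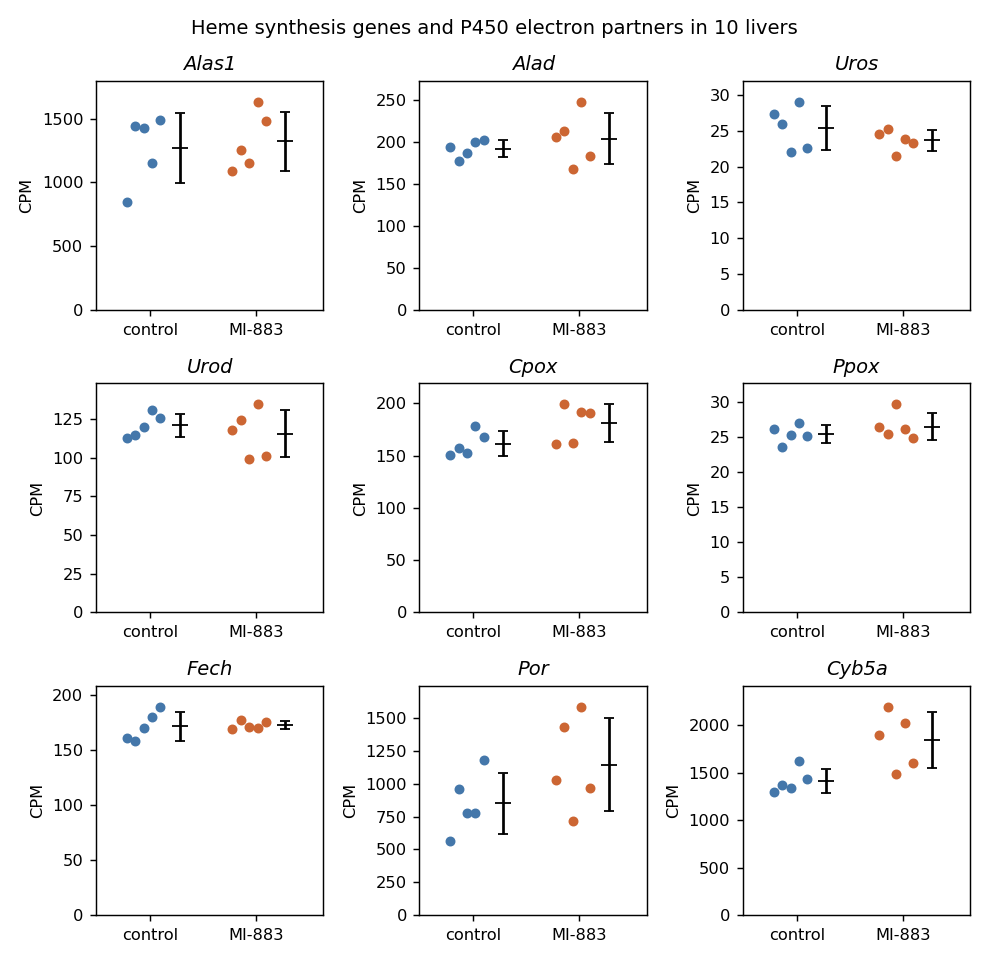
CPM of each gene in 5 control and 5 MI-883 livers, with 1 point per liver and the mean ± S.D. beside it. The groups overlap in each gene, and 3 MI-883 livers lie above the highest control for Cyb5a and 2 for Por.

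Alas1 (Entrez gene 11655, chromosome 9, 106233455 to 106247954, minus strand, GRCm38) encodes the first enzyme of the pathway in liver. Its level in control livers 1 to 5 was 842, 1445, 1423, 1153 and 1491 CPM. In MI-883 livers 1 to 5 it was 1087, 1253, 1151, 1631 and 1482 CPM. The groups overlapped, with control liver 1 the lowest and MI-883 liver 4 the highest of all, and 1 treated liver lay above the highest control. The means were 1271 ± 274 and 1321 ± 230 CPM (S.D., n = 5), a log2 fold change of 0.06 ± 0.16 (SE) with an edgeR adjusted P of 0.899. The 95% interval of the fold reached from 0.818 to 1.32, so that an increase above 1.32-fold lay outside it. Its exons overlap those of 4930500F10Rik on the opposite strand, and the strand setting of the counting is not given in the sources used here, so reads of the pair cannot be told apart.

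Alad (chromosome 4, 62505984 to 62520063, minus strand) encodes the cytosolic enzyme that forms the pyrrole porphobilinogen. Its level lay between 178 and 202 CPM in controls and between 168 and 248 CPM after MI-883. MI-883 livers were on both sides of the controls, with 3 above the highest control, and their coefficient of variation was 14.9% against 5.19% in controls. The log2 fold change was 0.08 ± 0.10 (SE; edgeR adjusted P = 0.704).

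Uros (chromosome 7, 133686142 to 133710467, minus strand) encodes the enzyme that closes the ring. Its counts ran from 515 to 1003 per liver, with the smallest minimum of the 9 genes, and those of Ppox from 574 to 937. Its level was 25.4 ± 3.04 CPM in controls and 23.7 ± 1.43 CPM after MI-883, and no treated liver lay above the highest control. Its log2 fold change was -0.10 ± 0.09 (SE; edgeR adjusted P = 0.592). Urod (chromosome 4, 116989965 to 116994436, minus strand), whose enzyme removes carboxyl groups from the ring, was at 121 ± 7.58 and 115 ± 15.1 CPM, with a log2 fold change of -0.07 ± 0.09 (edgeR adjusted P = 0.756). These were the 2 genes with a value below 0.

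Cpox (chromosome 16, 58670208 to 58680391, plus strand) encodes the oxidase that returns the pathway to mitochondria. Its level was 150, 157, 153, 179 and 168 CPM in control livers 1 to 5 and 161, 199, 162, 192 and 191 CPM in MI-883 livers 1 to 5. All 5 treated livers were above the control median, and 3 were above the highest control. The log2 fold change of 0.16 ± 0.08 (SE) was the largest of the 7 synthesis genes, with an edgeR adjusted P of 0.354. Its exons overlap Gpr15, which had at most 2 counts per liver. Ppox (chromosome 1, 171276991 to 171281193, minus strand), whose enzyme forms protoporphyrin, was at 25.5 ± 1.28 and 26.5 ± 1.88 CPM, with a log2 fold change of 0.06 ± 0.07 (edgeR adjusted P = 0.712). Its exons overlap B4galt3, which had between 272 and 464 counts per liver and a log2 fold change of -0.13 (edgeR adjusted P = 0.468). Fech (chromosome 18, 64456542 to 64489098, minus strand), the gene of ferrochelatase, was at 172 ± 13.2 and 173 ± 3.69 CPM, with a log2 fold change of 0.01 ± 0.07 (edgeR adjusted P = 0.968). Its treated livers all lay between 169 and 177 CPM, inside the control range of 158 to 189 CPM.

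All 7 synthesis genes had log2 fold changes within 0.2 of 0. At most 0.813% of the 100-base stretches of any of the 9 transcripts also occurred in another gene. Over the 7, the 95% intervals of the fold lay between 0.818 and 1.32.

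**Figure D3:**
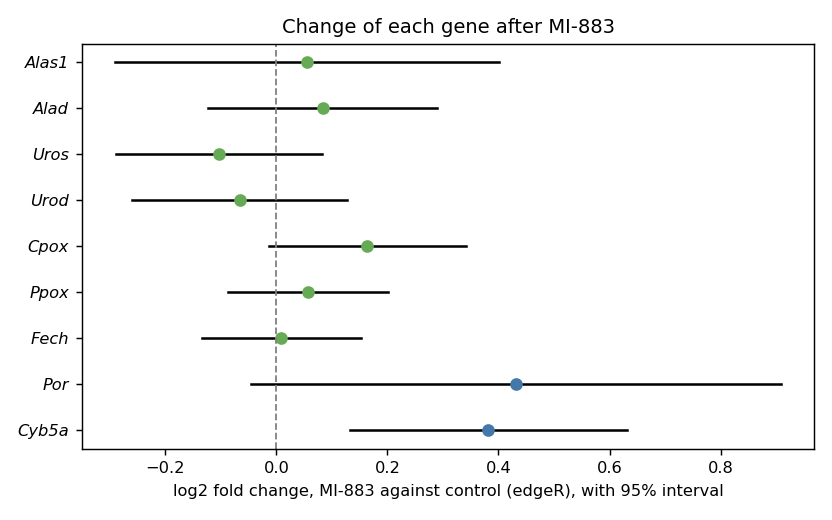
Log2 fold change of each gene, MI-883 against control (edgeR), as a point with its 95% interval. The interval of Cyb5a, from 0.13 to 0.63, is the only one of the 9 that does not reach 0, and that of Por reaches from -0.05 to 0.91.

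Por (Entrez gene 18984, chromosome 5, 135670040 to 135735326, plus strand) encodes the reductase. Its level in control livers 1 to 5 was 564, 959, 777, 774 and 1179 CPM. In MI-883 livers 1 to 5 it was 1027, 1432, 718, 1588 and 969 CPM. MI-883 livers 2 and 4 were above every control, while MI-883 liver 3 was below 4 of the 5 controls. The coefficient of variation was 27.1% in controls and 31.0% after MI-883, the widest spread of the 9 genes in each group. The means were 851 ± 231 and 1147 ± 356 CPM, a log2 fold change of 0.43 ± 0.22 (SE) or 1.35-fold, with an edgeR adjusted P of 0.365. The 95% interval of the fold reached from 0.968 to 1.88, so that the interval held both no difference and a 1.88-fold higher level.

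Cyb5a (Entrez gene 109672, chromosome 18, 84851338 to 84879871, plus strand) encodes cytochrome b5, itself a heme protein. Its level in control livers 1 to 5 was 1291, 1369, 1344, 1625 and 1436 CPM. In MI-883 livers 1 to 5 it was 1897, 2196, 1489, 2029 and 1598 CPM. All 5 treated livers were above the control median and 4 of the 5 controls were below the lowest treated liver, but control liver 4 overlapped MI-883 livers 3 and 5. The means were 1413 ± 129 and 1842 ± 295 CPM, a log2 fold change of 0.38 ± 0.12 (SE) or 1.30-fold. The edgeR adjusted P was 0.149 and the unadjusted P 0.00567, which put Cyb5a at rank 503 of the tested genes. DESeq2 gave an adjusted P of 0.0317 for the same counts, and called 1 of the 9 genes beside 3.5% of all tested genes. With scaling by total counts in place of TMM, the edgeR adjusted P was 0.0365, and 1 of the 9 genes passed beside 1.05% of all tested genes.

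The level of the P450 transcripts themselves was summed in each liver to set the partners beside the enzymes they serve. The sum took 71 mouse genes of the families Cyp1 to Cyp4, in CPM per kb of exon, with no row for the human CYP3A4 and CYP3A7. Mouse Cyp2 genes include close paralogs, between which reads may have been split. Of these, 62 were tested and 14 were higher after MI-883 (edgeR adjusted P under 0.05), while 0.764% of all tested genes were. None was called lower by edgeR. DESeq2 called 20 of the 62, beside 3.5% of all tested genes, and some of these were lower. The lower ones were Cyp2c38, Cyp2c40, Cyp2c67, Cyp2c68 and Cyp2c70 (log2 fold changes -1.24 to -0.53), named after their values were seen. Some of the 14 were near 0 in controls and passed the minimum of 60 summed counts through the MI-883 livers, such as Cyp2c66 and Cyp2c65 at 0.0058 and 0.126 CPM in controls, named after their values were seen. With 60 counts in every liver, edgeR called 11, beside 130 genes over all genes tested with that filter. The sum in control livers 1 to 5 was 11965, 13611, 13618, 14957 and 16014 CPM per kb. In MI-883 livers 1 to 5 it was 17085, 20757, 15798, 21574 and 19110 CPM per kb. MI-883 liver 3 alone lay below the highest control. The means were 14033 ± 1533 and 18865 ± 2427, a log2 difference of 0.42 ± 0.11 (SE) or 1.34-fold, with an exact two-sided permutation P of 0.0159 and 0.0635 after adjustment over 4 values.

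The 3 most abundant P450 genes in controls held 56.4% of the sum. Cyp2e1, which oxidizes ethanol, stood at 5396 and 5138 CPM per kb (log2 fold change -0.07, edgeR adjusted P = 0.847). Cyp2c29 rose from 1264 to 2566 CPM per kb (log2 fold change 1.02 ± 0.10 (SE), edgeR adjusted P = 0.000172). Cyp2a5 rose from 1249 to 2125 CPM per kb (log2 fold change 0.77 ± 0.15, edgeR adjusted P = 0.0281). Cyp2b10, the classical CAR target of mouse liver, rose from 18.8 to 525 CPM per kb (log2 fold change 4.80 ± 0.25, edgeR adjusted P = 3.63e-07), and gave 506 of the gain of 4832 CPM per kb in the mean sum.

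Within a liver, Por stood at 17.3, 25.8, 20.9, 19.0 and 27.0 per 1000 of the P450 sum in control livers 1 to 5. In MI-883 livers 1 to 5 it stood at 22.0, 25.3, 16.7, 27.0 and 18.6 per 1000. The ranges lay over each other, with a log2 difference of -0.01 ± 0.18 (SE; exact two-sided permutation P = 0.960). Cyb5a was at 106 ± 8.11 per 1000 in controls and 102 ± 11.3 per 1000 after MI-883, a log2 difference of -0.05 ± 0.09 (exact two-sided permutation P = 0.587, adjusted 0.783). A difference of either ratio was not shown, which does not make the groups equal.

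Alas1 stood at 17.8, 26.8, 26.4, 19.5 and 23.5 per 1000 of the P450 sum in control livers 1 to 5. In MI-883 livers 1 to 5 it stood at 16.1, 15.2, 18.4, 19.1 and 19.6 per 1000. The 3 highest values were control livers 2, 3 and 5, while control livers 1 and 4 lay among the treated livers. The log2 difference was -0.35 ± 0.14 (SE) or 0.782-fold, with an exact two-sided permutation P of 0.0635 and 0.127 after adjustment. The smallest P that 5 against 5 livers can give in this test is 0.00794.

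**Figure D4:**
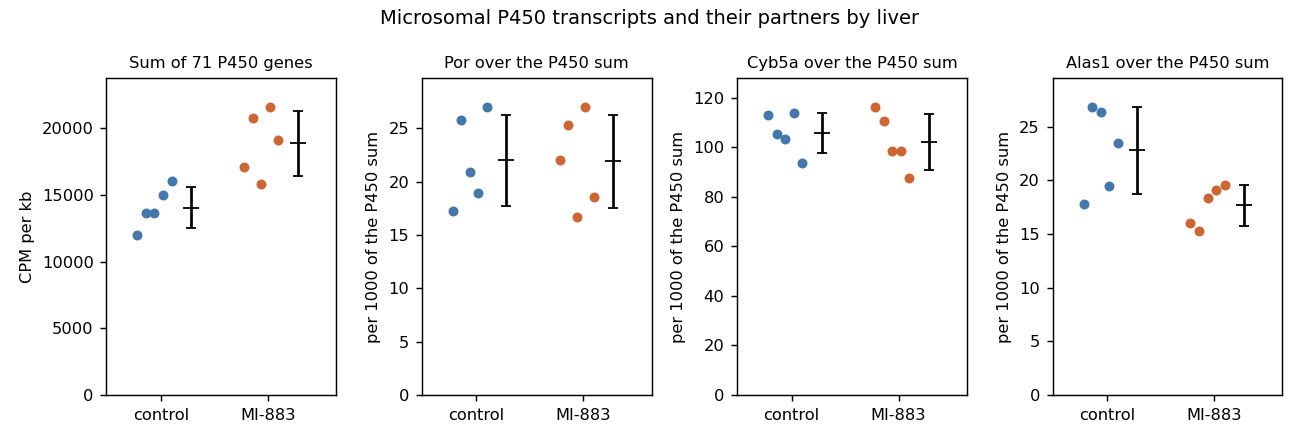
Summed level of 71 mouse P450 genes (CPM per kb of exon) and the level of Por, Cyb5a and Alas1 per 1000 of that sum, with 1 point per liver and the mean ± S.D. beside it. The sum is 14033 in controls and 18865 after MI-883, Por has means of 22.0 and 21.9, and Alas1 has means of 22.8 and 17.7.

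Other genes of heme synthesis, from mitochondrial carriers to the proteases that degrade ALAS1, were described from a list of 15 genes, all tested. None passed the edgeR threshold, and 2 had an unadjusted P under 0.05, a share near the 15.6% of all tested genes. Their log2 fold changes had a median of -0.04. Among them, the glycine carrier gene Slc25a38 stood at a log2 fold change of -0.06 ± 0.07 (SE), and Slc25a39, the gene of another mitochondrial carrier, at 0.07 ± 0.07 (edgeR adjusted P = 0.682). Alas2, the form of the first enzyme used by red cell precursors, was at 83.6 ± 11.8 and 79.1 ± 13.2 CPM (edgeR adjusted P = 0.785).

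Genes of heme breakdown, transport and binding had values on both sides of 0. None of the 13 passed the edgeR threshold, while 8 had an unadjusted P under 0.05 (15.6% of all tested genes), 5 were called by DESeq2 (3.5% of all) and 5 had groups without overlap (3.98% of all). With a minimum of 60 counts in every liver or the filter of filterByExpr, edgeR called 2 of the 13, Slc48a1 and Pgrmc2. It called 1 with DESeq2 size factors (Slc48a1), 1 with total counts scaling (Pgrmc1) and 3 with a surrogate variable (all of these). Over all tested genes, edgeR called 130 with 60 counts in every liver and 143 with filterByExpr. It called 139 with DESeq2 size factors, 139 with total counts scaling and 423 with a surrogate variable. The 5 called by DESeq2 are named here after their values were seen. Slc48a1, a transporter that moves heme out of endosomes and lysosomes, was at 55.7 ± 5.25 and 72.2 ± 6.21 CPM (log2 fold change 0.37, adjusted P 0.0506 in edgeR and 0.00204 in DESeq2). Pgrmc1, a heme-binding membrane protein that interacts with P450 enzymes, was at 1683 ± 122 and 2162 ± 202 CPM (log2 fold change 0.36, adjusted P 0.0864 in edgeR and 0.00135 in DESeq2). Its relative Pgrmc2 had the opposite sign, at 126 ± 4.87 and 105 ± 4.73 CPM (log2 fold change -0.27, adjusted P 0.0506 in edgeR and 0.00031 in DESeq2). Blvrb, a biliverdin reductase, had a log2 fold change of 0.27 (adjusted P 0.134 in edgeR and 0.0305 in DESeq2). Fabp1, the fatty acid carrier of hepatocytes, had one of -0.29 (adjusted P 0.176 in edgeR and 0.0177 in DESeq2). Hmox1, the inducible heme oxygenase, was at 23.6 ± 2.22 and 26.5 ± 5.46 CPM (log2 fold change 0.17, edgeR adjusted P = 0.524). Hmox2, the constitutive form, had a log2 fold change of -0.02 and Blvra, the other biliverdin reductase, one of -0.21 (edgeR adjusted P 0.934 and 0.224).

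Other electron partners were 10 listed genes, of which 9 were tested. None passed the edgeR threshold, and 1 had an unadjusted P under 0.05 (15.6% of all tested genes). Their log2 fold changes had a median of 0.05. The mitochondrial cytochrome b5 gene Cyb5b stood at 507 ± 13.5 and 488 ± 44.3 CPM (log2 fold change -0.06, edgeR adjusted P = 0.754). Cyb5r3, whose product reduces cytochrome b5, stood at 781 ± 30.5 and 820 ± 49.5 CPM (log2 fold change 0.07, edgeR adjusted P = 0.669). Cyb5r1 had a log2 fold change of 0.26 (edgeR adjusted P = 0.235).

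**Figure D5:**
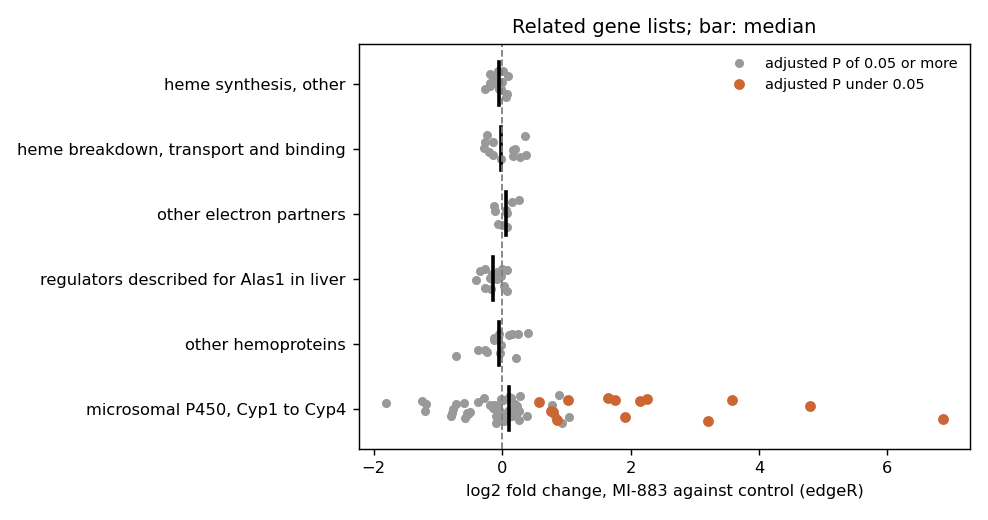
Log2 fold change of each gene of the related lists, MI-883 against control (edgeR), 1 point per gene, with the median as a bar. Orange points pass an adjusted P of 0.05 and are all P450 genes, 14 in number.

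Regulators described for Alas1 in liver and clock genes were each 16 tested genes, with 0 called by edgeR and 2 with an unadjusted P under 0.05 in each list (15.6% of all tested genes). The lists share Nr1d1 and Nr1d2. Of the regulators, 13 were below 0, with a median log2 fold change of -0.14. The list includes Nr1i2 (PXR) and Nr1i3 (CAR) as mouse genes, and the human receptors of this model have no value of their own. Ppargc1a, the coactivator that links fasting to Alas1, was at 8.92 ± 0.62 and 7.81 ± 1.42 CPM (log2 fold change -0.19, edgeR adjusted P = 0.467). Ppargc1b and Nrf1, the next on the list, had log2 fold changes of -0.40 and 0.07 (edgeR adjusted P 0.337 and 0.766). Of the regulators, DESeq2 and edgeR with a surrogate variable called Igf1, which is named for that, with a log2 fold change of -0.34 (edgeR adjusted P = 0.142). Of the clock genes, 11 were below 0 and the median was -0.12. Arntl, Clock and Per1 had log2 fold changes of 0.02, -0.11 and -0.11 (edgeR adjusted P 0.978, 0.575 and 0.851).

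Other hemoproteins, 14 genes that use heme outside the P450 families summed above, included none called by edgeR, 4 with an unadjusted P under 0.05 (15.6% of all tested genes) and a median of -0.04. Catalase (Cat), Tdo2 of tryptophan breakdown and Cyp7a1, the rate-limiting enzyme of bile acid synthesis, had log2 fold changes of 0.10, -0.03 and -0.73 (edgeR adjusted P 0.596, 0.908 and 0.367). Suox, sulfite oxidase, had a log2 fold change of -0.37 (edgeR adjusted P = 0.0516). It is named because it was called by DESeq2 and, in edgeR, with 60 counts in every liver, with filterByExpr, with total counts scaling and with a surrogate variable. With control liver 1 left out, edgeR called Suox and also Cyp7a1 (adjusted P 0.0332 and 0.0330), beside 208 genes over all tested genes. Cyp7a1 ranged from 15.7 to 120 CPM in controls and from 32.4 to 50.9 CPM after MI-883.

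Cell type markers were read beside these values. Erythroid cells also make heme, and 6 of 7 listed markers were tested, all below 0, with none called and a median of -0.43. Hba-a1 and Hba-a2, the alpha globin genes, were at 18.3 and 40.1 CPM in controls and 13.1 and 24.7 CPM after MI-883 (edgeR adjusted P 0.509 and 0.224). The red cell membrane gene Epb42 was at or near 0, with 0 to 4 counts per liver. The summed level of the erythroid markers lay between 139 and 201 CPM in controls and between 95.2 and 178 CPM after MI-883. Alas2, itself a heme synthesis gene, is part of this sum, with means of 83.6 and 79.1 CPM. The part of erythroid cells in the values of the heme genes was not tested. The 7 hepatocyte markers, led by Alb, Ttr and Serpina1c, were all below 0 and none was called (median -0.20, sum 67865 to 78363 and 59775 to 71238 CPM). In the lists of Kupffer cell, stellate cell, endothelial, cholangiocyte and lymphocyte markers, none was called, and the medians were 0.04, 0.16, 0.19, 0.55 and -0.40.

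Zonation markers were read because many P450 genes are mainly expressed around the central vein. Of 8 pericentral markers 1 rose, Lect2, from 168 ± 25.7 to 246 ± 33.3 CPM (log2 fold change 0.55, edgeR adjusted P = 0.0424), beside 0.764% of all tested genes called higher, and the median was 0.34. Of the 8, 6 were above 0 and 2 below, Slc1a2 and Cyp2e1, with log2 fold changes of -0.09 and -0.07. Glul, which makes glutamine around the central vein, was at a log2 fold change of 0.27 and Oat at 0.36 (edgeR adjusted P 0.155 and 0.375). DESeq2 called 2 of the 8, Lect2 and Glul (adjusted P 0.000902 and 0.0128), beside 3.5% of all tested genes. Of 7 periportal markers 1 fell, Hal, from 201 ± 22.0 to 146 ± 12.8 CPM (log2 fold change -0.46, edgeR adjusted P = 0.0264), beside 0.265% of all tested genes called lower, and the median was -0.31. Cyp2f2 and Sds had log2 fold changes of 0.10 and -0.41 (edgeR adjusted P 0.689 and 0.222). With single livers left out, no pericentral marker was called without control 1, 2, 3 or 5 or MI-883 liver 1, 2, 4 or 5, and no periportal marker without control 2, 3, 4 or 5 or MI-883 liver 2, 3 or 5. The part of zonation in the values of Por and Cyb5a was not tested.

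Patterns over the 10 livers were compared as Pearson correlations of log2 CPM among 11613 genes, as a description, since all genes of a liver share its library. Por was most like Cyp27a1, a mitochondrial sterol hydroxylase (r = 0.976, and 0.974 after the group means were taken out), followed by Rhbdd2, Scara5, Itpr1 and the clock gene Cry1 (r = 0.953 to 0.936). Alas1 was most like Foxo3 (r = 0.902 and 0.901), followed by Cluh, Ldlrad4, Dym and Sidt2. Cyb5a was most like Mcfd2 (r = 0.940 and 0.906), followed by Exosc8, Sult2a7, Ces1d and Cnmd. Among the 9 genes, the highest correlation was between Alad and Urod (r = 0.796, and 0.922 without the group means). Urod and Cyb5a came close to it without the group means (r = 0.399, and 0.919 without them). Por and Cyb5a were correlated at 0.766 and Alas1 and Por at 0.681.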

How the data were processed

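RNA-Seq was performed on livers of 5 control and 5 MI-883-treated mice, each library from another animal. Per the labels and the study's methods, reads were trimmed with fastp 0.23.0, aligned to the mouse genome (mm10, the same assembly as GRCm38) and counted with featureCounts. The authors deposited raw counts per Entrez gene, without normalization. The annotation version and strand setting are not given in the sources used here. Of 16647 genes, 16644 were matched to RefSeq symbols.

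Genes with at least 60 counts over the 10 livers were tested (13219 genes, 3428 were below) with edgeR 4.0.16 in R 4.3.3 (TMM, quasi-likelihood test, condition as sole term, Benjamini-Hochberg over all tested genes, threshold 0.05). The SE is the log2 fold change over the square root of F. Sums and ratios were compared by exact two-sided permutation tests over 252 splits. The genes and lists were chosen with earlier results of these data known. Besides the 9 genes, genes named are called list members, the first 3 measured of a pathway list, the 5 genes most like Alas1, Por and Cyb5a, the 3 highest P450 genes and Cyp2b10, with exceptions stated. Some genes under this rule are not reported here. Alternatives were DESeq2 1.42.0, its size factors, total counts, other filters, the replicate number as block, a surrogate variable (sva 3.50.0) and leaving out each liver. The study itself tested with DESeq2.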

Additional observations from a re-analysis of the deposited data

How the results depend on the processing

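Counts of called genes over all tested genes depended on the test, with 136 by edgeR, 463 by DESeq2, 423 with a surrogate variable and 62 to 208 when a liver was left out. The count was 208 without control 1, 87 without control 2, 81 without control 3, 75 without control 4, 68 without control 5, 70 without MI-883 liver 2 and 62 without MI-883 liver 5. Of the 9 genes, 0 were called with any liver left out, and 1 (Cyb5a) with DESeq2 and 1 with total counts scaling. The edgeR adjusted P of Cyb5a lay between 0.102 and 0.257 and that of Por between 0.301 and 0.544 with a liver left out. The log2 fold change of Alas1 lay between -0.061 and 0.120 and that of Fech between -0.0140 and 0.0467, so their signs depended on a liver. The log2 difference of the P450 sum was 0.47 with total counts scaling (exact permutation P adjusted 0.0317) and 0.37 to 0.49 with a liver left out (adjusted 0.0635 to 0.127). The log2 difference of the Por ratio was 0.0308 without Cyp2b10 and -0.0888 to 0.0854 with a liver left out. That of the Cyb5a ratio was -0.100 to 0.00196 with a liver left out. Neither ratio, nor Alas1, nor Fech was called in any of these settings. The cause of these shifts was not tested. With a liver left out, 0 to 1 pericentral and 0 to 2 periportal markers were called.

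With the replicate number as a block, 89 genes were called over all tested genes, and 0 of the 9, with 0 pericentral, 0 periportal and 1 erythroid marker. Livers with the same number had correlations of their deviations of 0.373, -0.110, -0.098, 0.078 and 0.094, and none correlated best with its own number. What the numbers stand for is not given, and these values cannot show whether such livers shared a litter, cage or day. Depth was not limiting for the 9 genes, which had at least 515 counts in every liver.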
